A study of Solanum lycopersicum with 21 samples.

Results

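Wild-type tomato leaves that had recovered from a second drought were compared with leaves of irrigated wild-type plants. The comparison rests on 6 of the 21 libraries of the study, picked out by their labels. The comparison itself was chosen with earlier results of these data known. The recovered group (time label 76) holds replicates 8, 11 and 9, and the irrigated group (time label 0) holds replicates 6, 7 and 14. All of these plants were tomato (Solanum lycopersicum) of the cultivar M82, labelled wild type and not sprayed with hormone, and their age was given as 3 weeks. Recovered plants were uprooted, moved to vermiculite with 20 ml of water, left to dry, rewatered until they recovered, and put through the same cycle again. Irrigated plants were sampled before any transfer to new substrate. Drought history, transfer and sampling time therefore cannot be told apart in this comparison. Where it bears on a result, the same recovery in line 6936 is given beside it. That line is a strigolactone-depleted tomato in which the synthesis gene CCD7 is silenced, again sampled after 2 droughts (replicates 13, 11 and 8) and under irrigation (replicates 3, 6 and 7). It is a single line, and its depletion was described for roots and exudates, not for leaves.

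A leaf that dries builds up abscisic acid, the hormone that closes stomata and switches on protective genes, and most of that programme is known to be switched off again after rewatering. Transcripts that stay changed after recovery are studied as candidates for drought memory, in which an earlier drought alters the response to a later one. Strigolactones are carotenoid-derived hormones known for restraining shoot branching, and in tomato they also act on the stomatal response to drought.

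The measured features are gene loci named by their tomato locus numbers (IDs beginning with Solyc, in which the digits after the prefix give the chromosome) and by ENSRNA numbers for non-coding RNA. No source used here pairs these IDs with gene names or products. Of 35039 IDs, 0 matched the table of RefSeq genes, so no function is given to any ID, the leaf identity of the samples was not checked against markers, and only a few IDs are printed. After a filter on low counts, 20373 IDs were tested. Levels are given as CPM, counts divided by the library total, which was scaled by TMM factors to correct for library composition. A fold change is the recovered over the irrigated level on the log2 scale. An ID counts as called where edgeR's quasi-likelihood test, fitted to all 21 libraries, gave an adjusted p (Benjamini-Hochberg) under 0.05. These libraries form 7 groups of 3, which share the estimate of the spread. The wild type and the depleted line each have groups under irrigation, after 1 drought and after 2. The last group is wild type sprayed with GR24, without drought. The age given for all groups was 3 weeks.

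Library totals ranged from 23326213 to 34798789 counts in recovered leaves and from 23517459 to 34997305 in irrigated leaves. A count of 3 in a single library, taken as its floor, corresponded to 0.0862 to 0.129 CPM in recovered leaves and 0.0857 to 0.128 CPM in irrigated leaves. These floors use the library totals without TMM factors, so they are approximate beside the levels given here. The 10 most abundant IDs took 8.16 ± 0.472% of the counts in recovered leaves and 9.53 ± 0.733% in irrigated leaves (SD, n = 3 each; two-sided exact permutation p = 0.1, the smallest that 3 against 3 can give). The number of IDs with a count averaged 22330 ± 174 in recovered and 21875 ± 389 in irrigated leaves (SD, n = 3 each; exact permutation p = 0.2). The labels call the libraries biological replicates of at least 3 leaves, 1 per plant, and name 5 plants. If those 5 served a whole condition, replicates shared plants and the p-values are too small.

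The 2 groups separated along the main axis of variation, and replicate 9 lay farthest out on the recovered side. The first principal component of log2 CPM over the 6 libraries held 53.0% of the variance. Recovered replicates 8, 11 and 9 lay at −30.9, −41.7 and −84.8 on it, while irrigated replicates 6, 7 and 14 lay at 62.6, 58.8 and 36.1. The second component, with 16.4%, set irrigated replicate 14 apart at −61.3 from irrigated replicates 6 and 7 at 30.5 and 20.4. The root-mean-square difference in log2 CPM between recovered replicates 8 and 11 was 0.58, against 0.73 and 0.68 between each of them and replicate 9. Within the irrigated group it was 0.56 between replicates 6 and 7, against 0.73 and 0.69 between each of them and replicate 14. Across the groups, replicate 9 differed from the irrigated libraries by 1.02 to 1.12, replicate 8 by 0.81 to 0.85 and replicate 11 by 0.78 to 0.89. Every difference across the groups therefore exceeded every difference within a group.

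**Figure D1:**
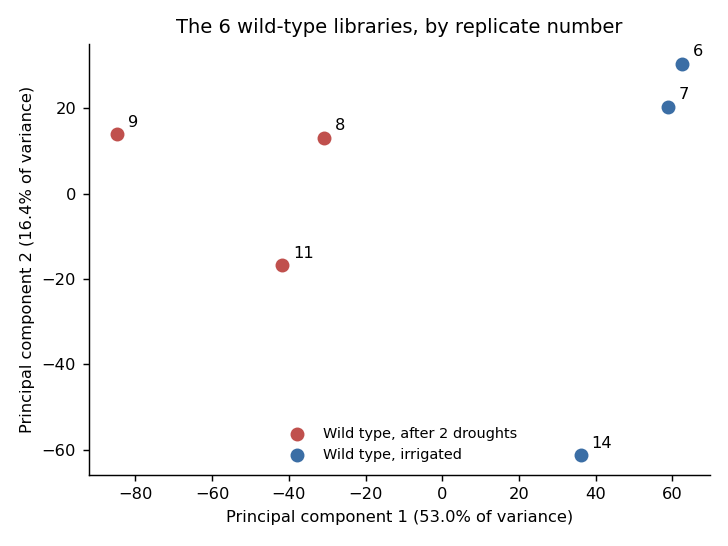
The 6 wild-type libraries on the first (x axis, 53.0% of variance) and second (y axis, 16.4%) principal components of log2 CPM, each point a library with its replicate number, red after 2 droughts and blue irrigated. Replicate 9 lies at −84.8 on the first component, beyond replicates 8 and 11 at −30.9 and −41.7, and irrigated replicate 14 lies apart on the second.

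After recovery from the second drought 997 of the tested IDs were called, which is 4.89% of them. The 425 higher IDs made up 2.09% and the 572 lower IDs 2.81% of all tested. Most changes were modest. The median log2 fold change was 1.23 among the higher IDs (quartiles 0.80 and 2.06) and −1.10 among the lower IDs (quartiles −1.82 and −0.72), against −0.04 over all tested IDs. A change of at least 3 on the log2 scale was seen in 64 higher and 60 lower IDs, and 149 higher and 255 lower IDs changed by less than 1. There were 0 IDs without a count in every library of one group and with at least 1 CPM in every library of the other.

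Lower calls outnumbered higher ones among abundant transcripts. Of the 1265 IDs with a mean log2 CPM of 7 or more, 15 were higher (1.19%) and 55 lower (4.35%). Of the 4313 IDs between 5 and 7, 94 were higher (2.18%) and 174 lower (4.03%). Between 3 and 5, the largest band, 164 were higher and 194 lower of 6221 IDs, and this order turned round under upper-quartile factors (189 higher, 163 lower). The numbers were close to even below that, with 98 higher and 92 lower of 4059 IDs between 1 and 3, and 54 higher and 57 lower of 4515 under 1. Other scalings kept the excess of lower calls among the most abundant IDs, with 16 higher and 50 lower under RLE factors and 17 and 43 under upper-quartile factors. The called lists also shifted as a share of all CPM. The 572 lower IDs took 2.35, 2.50 and 1.96% of the tested CPM in recovered replicates 8, 11 and 9, against 4.04, 4.26 and 4.01% in irrigated replicates 6, 7 and 14. The 425 higher IDs took 1.61, 1.95 and 4.28% in recovered replicates 8, 11 and 9, against 0.694, 0.721 and 0.938% in the irrigated replicates in the same order. In summed CPM, replicate 9 was thus far above the other recovered libraries for the higher list but only slightly below them for the lower list. Counted per ID, it was farthest in both. At least 2 (log2 CPM) above the irrigated mean were 68, 78 and 135 higher IDs in replicates 8, 11 and 9. At least 2 below it were 85, 98 and 167 lower IDs. At a cutoff of 1 the numbers were 204, 242 and 301 higher IDs and 263, 279 and 360 lower IDs. Over all tested IDs, 6.73, 6.38 and 7.96% rose by at least 1, and 5.15, 7.20 and 11.96% fell by at least 1. The shares of all tested IDs at a cutoff of 2 were not computed. The 10 IDs with the largest gain in replicate 9, picked on that library, summed to 13315 CPM in it and to 2195 and 2626 CPM in replicates 8 and 11, against 696 to 712 CPM in irrigated leaves. Without those 10, the higher list summed to 12924, 14289 and 27290 CPM in recovered replicates 8, 11 and 9, against 6832 to 7806 CPM in irrigated leaves.

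The called IDs came from all 12 chromosomes. Between 3.38% (chromosome 2) and 6.34% (chromosome 3) of the tested IDs of a chromosome were called, against 4.89% over all. Chromosomes 3, 5 and 11 each had over 6%, with 66 higher and 71 lower of 2162 IDs on chromosome 3, 41 and 46 of 1380 on chromosome 5, and 42 and 41 of 1357 on chromosome 11. Chromosome 10 had the lowest share of higher calls, 16 of 1338 (1.20%). Of 67 tested ENSRNA IDs 1 was called. Some called IDs were next to each other in the order of tested IDs. Of the 424 higher Solyc IDs, 40 (9.43%) stood in 20 neighbouring pairs called in the same direction, where 2.09% of all tested IDs were higher. Of the 572 lower IDs, 48 (8.39%) stood in 24 pairs, where 2.81% of all were lower. An ID has a neighbour on either side, so unrelated calls would give a larger share in pairs than these shares of all IDs. Whether pairs were in excess was therefore not tested. No run held 3 or more IDs. Neighbouring IDs can be near-identical copies whose reads the authors' counting may have split, which was not tested.

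The 2 higher IDs of smallest p had unlike profiles. Solyc03g115230.3, on chromosome 3, stood at 64.6, 156 and 679 CPM in recovered replicates 8, 11 and 9, against 14.6, 15.9 and 19.2 CPM in irrigated replicates 6, 7 and 14. All recovered libraries lay above all irrigated ones, but replicate 9 stood several-fold above replicates 8 and 11. It averaged 299.6 ± 331 CPM in recovered and 16.6 ± 2.39 CPM in irrigated leaves (SD, n = 3 each), and its log2 fold change was 4.18 ± 0.66 (SE) at an edgeR adjusted p of 0.00948. Fitted with the 6 libraries alone, it was not called (adjusted p = 0.0550). Solyc03g097780.3, also on chromosome 3, showed a small difference with little spread. It stood at 22.8, 24.5 and 27.6 CPM in recovered replicates 8, 11 and 9, against 12.7, 13.4 and 16.1 CPM in irrigated replicates 6, 7 and 14. Its log2 fold change was 0.83 ± 0.13 (SE, edgeR adjusted p = 0.00948).

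Of the lower IDs, Solyc02g084410.3 on chromosome 2 had the smallest p of all tested IDs. It stood at 7.63, 5.46 and 6.82 CPM in recovered replicates 8, 11 and 9, against 186, 153 and 42.0 CPM in irrigated replicates 6, 7 and 14. Here the recovered libraries were close together and the spread lay in the irrigated group, with replicate 14 nearest to the recovered level. It averaged 6.64 ± 1.09 CPM in recovered and 127 ± 75.7 CPM in irrigated leaves (SD, n = 3 each), and its log2 fold change was −4.26 ± 0.50 (SE) at an edgeR adjusted p of 0.00307. Solyc01g066457.1, on chromosome 1, was a low-level ID with the same profile. It stood at 0.250, 0.149 and 0.136 CPM in recovered replicates 8, 11 and 9, against 7.26, 3.89 and 1.93 CPM in irrigated replicates 6, 7 and 14. The recovered values rest on 18 counts in all, against 398 in the irrigated group. Its log2 fold change was −4.57 ± 0.63 (SE, edgeR adjusted p = 0.00948).

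**Figure D2:**
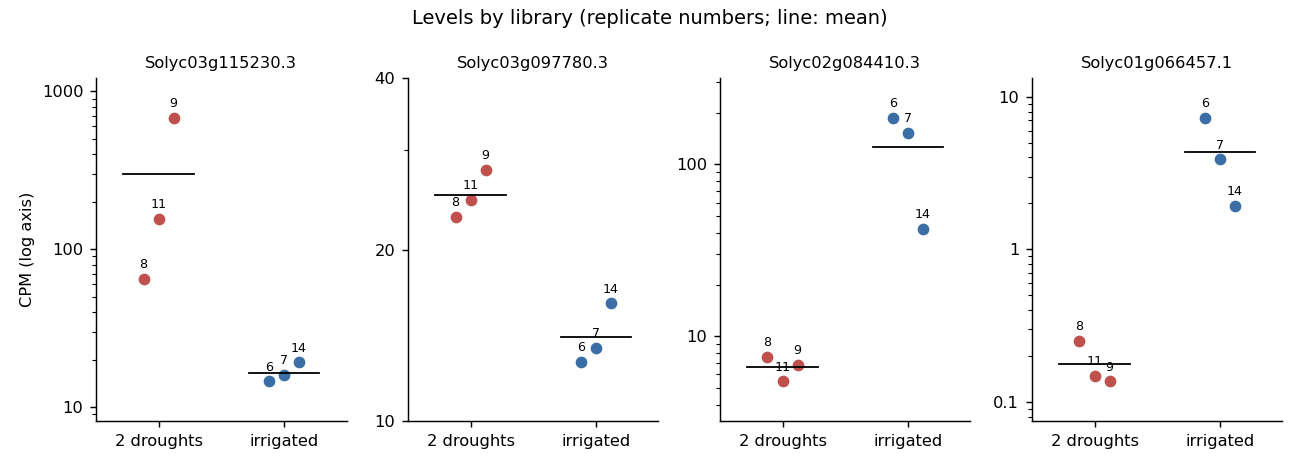
Level of 4 IDs in each library (y axis, CPM, log scale, with its own range per panel), red after 2 droughts and blue irrigated, with replicate numbers and group means as lines. Solyc03g115230.3 reaches 679 CPM in replicate 9, while Solyc02g084410.3 and Solyc01g066457.1 vary most in the irrigated group, with replicate 14 lowest.

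Over the whole lists, all 3 recovered libraries moved in the called direction and replicate 9 moved farthest. Among the higher IDs the median difference from the irrigated mean was 0.97, 1.10 and 1.40 (log2 CPM) in replicates 8, 11 and 9. Among the lower IDs it was −0.95, −0.98 and −1.27. Replicate 8 lay beyond the irrigated range for 421 of the 425 higher and 566 of the 572 lower IDs, replicate 11 for 424 and 569, and replicate 9 for 425 and 568. The groups did not overlap in 420 of the higher and 561 of the lower IDs. Over all tested IDs, recovered leaves lay wholly above irrigated leaves in 17.8% and wholly below in 19.8%. These IDs were called on the same libraries, so the separation describes them and is no further evidence.

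Replicate 9 was the most extreme recovered library in 292 of the 425 higher IDs (68.7%) and in 371 of the 572 lower IDs (64.9%). Over all tested IDs it was the highest of the 3 in 34.4% and the lowest in 38.8%. It stood at more than 2 times the level of both other recovered libraries in 82 higher IDs, against 7 for replicate 8 and 1 for replicate 11. Its level multiplied by 2 was still below that of both in 52 lower IDs, against 3 for replicate 8 and 9 for replicate 11. In the irrigated group, replicate 14 was the library nearest to the recovered level in 271 higher and 359 lower IDs, replicate 6 in 79 and 129, and replicate 7 in 75 and 84. The counts at 2 times the level and those of the nearest library were made on the called lists alone. Whether they are particular to these lists was not tested.

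**Figure D3:**
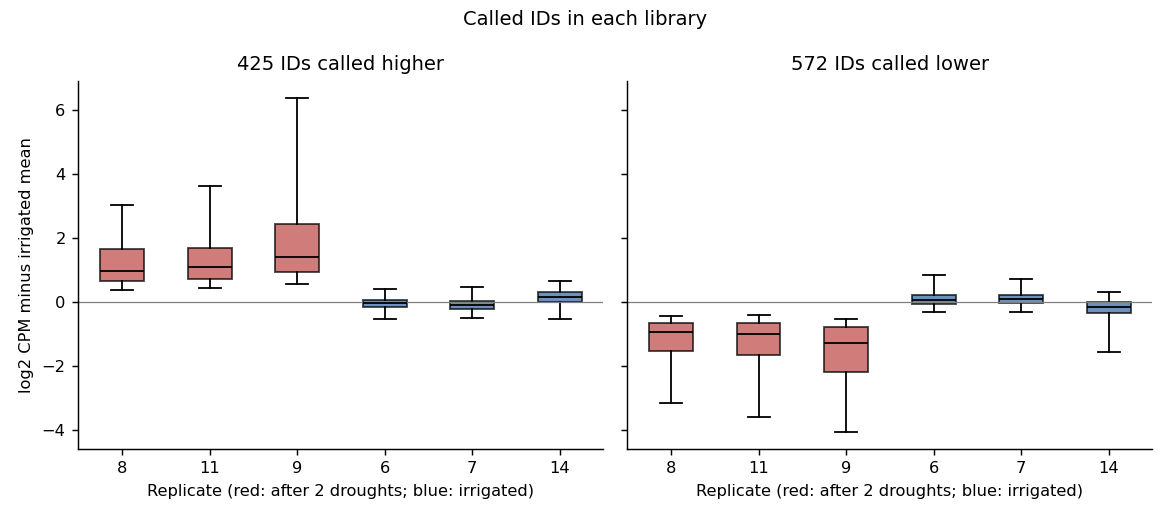
Difference from the irrigated mean (y axis, log2 CPM) in each library (x axis, replicate number) over the 425 higher and the 572 lower IDs; boxes give quartiles and median, whiskers the 5th and 95th percentiles, red after 2 droughts and blue irrigated. All 3 recovered libraries lie on the called side, with medians of 0.97, 1.10 and 1.40 for replicates 8, 11 and 9 among the higher IDs, and the upper whisker is longest in replicate 9.

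The number of calls depended strongly on which libraries were kept. Without recovered replicate 9, edgeR called 0 of the same 20373 IDs (smallest adjusted p 0.0607), while 3391 had an unadjusted p under 0.05, against 5000 with all libraries. Other tools were run without it after the data had been seen. Limma voom also called 0, with 3447 at an unadjusted p under 0.05. DESeq2 then called 730, of which 639 were among the 997, and limma voom with library quality weights called 4048, of which 963 were. Without recovered replicate 8 edgeR called 577 IDs and without replicate 11 it called 471, of which 498 and 439 were among the 997. Without irrigated replicate 6 or 7 it called 144 and 65. Without irrigated replicate 14 it called 1010, of which 726 were among the 997.

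The sizes of the changes moved far less than the number of calls. Without replicate 9 the median log2 fold change of the same lists was 1.05 for the higher and −0.99 for the lower IDs. Of the 997, 269 then had an adjusted p under 0.1 in edgeR, against 274 of all tested IDs, and none reached 0.05. These IDs were called on fits that hold the 5 remaining libraries, so the medians describe them and are no further evidence. All 4 IDs above and the 5 named below lost their call without replicate 9, with adjusted p between 0.0607 and 0.135. For Solyc03g115230.3 the log2 fold change was then 2.73, and for Solyc02g084410.3 it was −4.28.

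**Figure D4:**
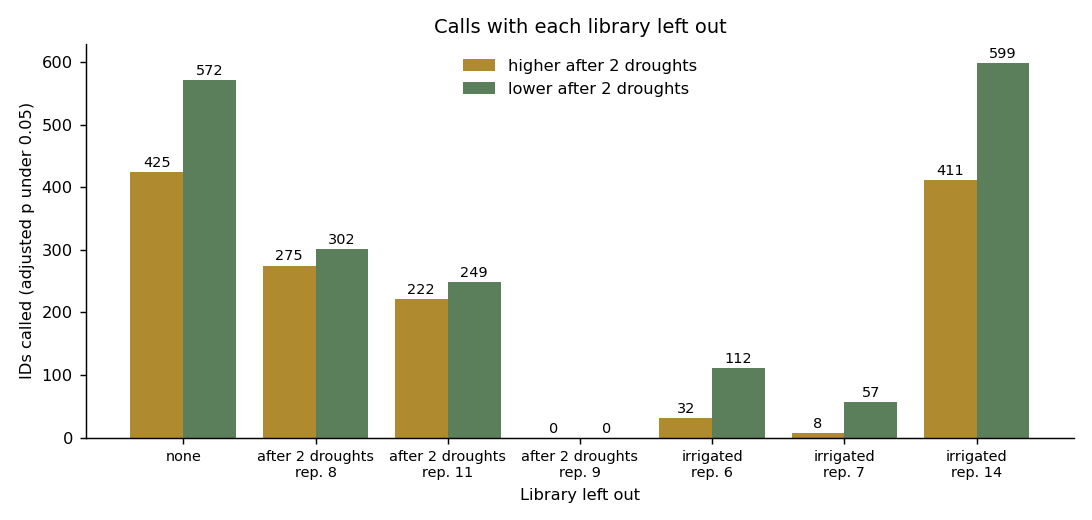
Number of IDs called by edgeR (y axis) with no library or 1 library left out (x axis), for IDs higher and lower after 2 droughts. The count is 425 and 572 with all libraries, 0 and 0 without recovered replicate 9, and 411 and 599 without irrigated replicate 14.

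After recovery from 1 drought (wild type, time label 31, replicates 1, 13 and 4) the medians of the same lists lay between those of the 2 groups. That comparison uses the same irrigated libraries, so its values are given side by side with those after 2 droughts and not as a separate result. The lists were also chosen for their change in the second-recovery libraries, so smaller values in other libraries follow in part from that choice. For the higher list the median log2 fold change was 1.23 after 2 droughts and 0.50 after 1, and for the lower list it was −1.10 and −0.38. Library by library, the higher list stood at a median of 0.41, 0.31 and 0.60 above the irrigated mean in first-recovery replicates 1, 13 and 4, all below the lowest second-recovery library at 0.97. In the direct comparison of the second with the first recovery, 62 IDs were called (0.304%). Between the first recovery and irrigation edgeR called 0 IDs (0%), with 1380 at an unadjusted p under 0.05 and 36 called by DESeq2. Solyc02g084410.3 had 71.2, 92.0 and 51.3 CPM in first-recovery replicates 1, 13 and 4. These lie above all its levels after 2 droughts and below irrigated replicates 6 and 7, but above irrigated replicate 14.

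In the strigolactone-depleted line the same lists had small median changes, with IDs moving in both directions. Of the higher list 35 IDs were called higher and 40 lower there, and of the lower list 26 higher and 61 lower. The IDs with large changes in the wild type mostly moved the same way. The fold changes of recovery over irrigation in that line compare none of the 6 wild-type libraries. Its calls and adjusted p do use a spread estimated over all 21 libraries. In the depleted line the median log2 fold change was 0.11 over the 425 higher IDs and −0.20 over the 572 lower IDs, against −0.02 over all tested IDs. The lists were chosen for their change in the wild-type libraries, so smaller values in this line follow in part from that choice. Of the 64 IDs that were higher by at least 3 in the wild type, 53 (82.8%) had a positive fold change in the depleted line, with a median of 1.53. Of the 60 lower by at least 3, 54 (90.0%) had a negative one, with a median of −1.53. Of the IDs that changed by less than 1 in the wild type, 70 of 149 higher (47.0%) and 122 of 255 lower (47.8%) had the same sign in the depleted line. Over all tested IDs 48.4% were positive and 51.5% negative there. The middle bands lay between, with 35 of 45 and 47 of 59 of the same sign for changes of 2 to 3, and 82 of 167 and 128 of 198 for changes of 1 to 2. With the size of the wild-type change taken without replicate 9, 25 of 31 IDs higher by at least 3 and 52 of 55 lower by at least 3 had the same sign in the depleted line.

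Of the 997 IDs, 162 were also called in the depleted line, which is 16.2% of the wild-type calls and 7.65% of the 2118 calls there. In that line 10.4% of all tested IDs were called, 4.35% higher and 6.04% lower. Of the 162, 96 moved in the same direction in both genotypes and 66 in opposite directions. Both genotypes were called with the same estimate of the spread, so these lists are not independent and nothing is read from the size of their overlap. With the compared groups of each genotype fitted alone, 1957 IDs were called in the wild type, of which 778 were among the 997. Of the 1957, 94 were shared in the same direction and 25 in opposite directions. The 96 had a median absolute log2 fold change of 1.78 in the wild type and 40 of them reached 2, whereas the 66 had a median of 0.81 and a maximum of 1.79. Without replicate 9 edgeR made no wild-type call, so 0 were shared in that fit.

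Solyc12g019570.2 and Solyc03g111100.1 were higher after 2 droughts in both genotypes. Solyc12g019570.2 had 45.8, 34.4 and 50.5 CPM in recovered wild-type replicates 8, 11 and 9, against 27.3, 25.1 and 24.5 CPM in irrigated replicates 6, 7 and 14. In the depleted line it had 19.2, 20.1 and 17.2 CPM in recovered replicates 13, 11 and 8, against 11.8, 10.8 and 12.2 CPM in irrigated replicates 3, 6 and 7. No library of a recovered group overlapped with its irrigated group, and the wild type was above the depleted line in both conditions. The log2 fold changes were 0.77 ± 0.13 in the wild type (SE, edgeR adjusted p = 0.00948) and 0.70 ± 0.13 in the depleted line (adjusted p = 0.00282). Solyc03g111100.1 had 75.3, 55.0 and 130.3 CPM in recovered wild-type replicates 8, 11 and 9, against 9.60, 9.98 and 8.06 CPM in irrigated ones. In the depleted line it had 40.9, 36.4 and 47.5 CPM after recovery, against 3.73, 1.82 and 2.50 CPM under irrigation. Its log2 fold changes were 3.24 ± 0.69 (SE, edgeR adjusted p = 0.0170) in the wild type and 3.95 ± 0.73 (adjusted p = 0.00310) in the depleted line.

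Solyc02g084410.3 and Solyc03g121420.3 were lower in both. For Solyc02g084410.3 the depleted line had 28.4, 25.1 and 15.4 CPM in recovered replicates 13, 11 and 8, against 87.0, 167 and 117 CPM in irrigated replicates 3, 6 and 7. Its fold change there was −2.43 ± 0.46 (log2, SE, edgeR adjusted p = 0.00377), and the difference from the wild-type change did not pass (interaction 1.83 ± 0.63, adjusted p = 0.0895). Solyc03g121420.3 had 0.835, 2.04 and 0.491 CPM in recovered wild-type replicates 8, 11 and 9, against 7.36, 5.24 and 7.52 CPM in irrigated ones. In the depleted line it had 14.3, 8.13 and 4.22 CPM after recovery, against 88.2, 49.5 and 32.2 CPM under irrigation. The levels of the depleted line were several times those of the wild type in both conditions, while the log2 fold changes were −2.61 ± 0.54 (SE, edgeR adjusted p = 0.0148) in the wild type and −2.67 ± 0.51 (adjusted p = 0.00359) in the depleted line.

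**Figure D5:**
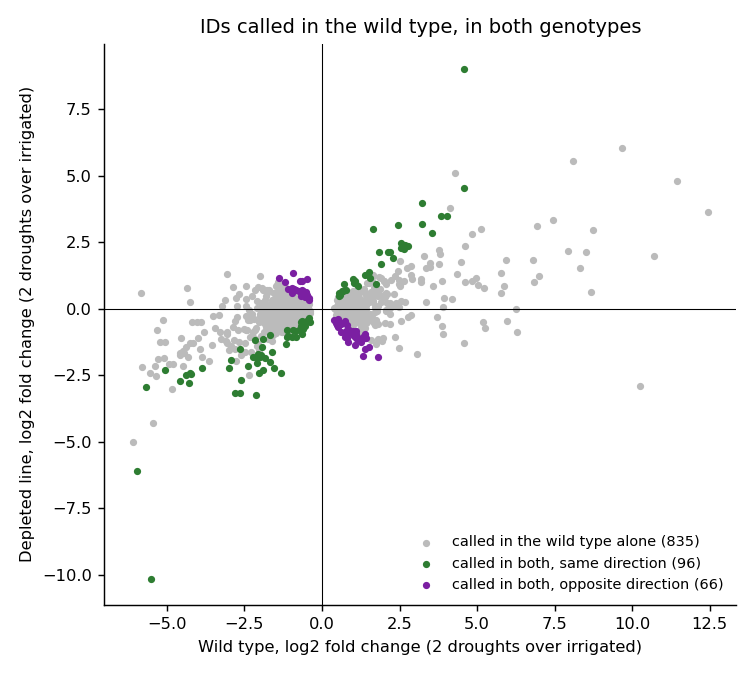
Log2 fold change after 2 droughts over irrigation in the depleted line (y axis) against the wild type (x axis) for the 997 IDs called in the wild type; colours mark the 96 also called in the same direction and the 66 called in the opposite direction in the depleted line. The opposite calls lie within 1.79 of 0 on the x axis, and the IDs with large wild-type changes lie mostly in the quadrants of equal sign.

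Whether the response differed between the genotypes was tested by an interaction term, the change in the depleted line minus that in the wild type. It passed for 335 of the 997 IDs (33.6%), against 6.95% of all tested IDs. The test shares the 6 wild-type libraries with the calls themselves, so nothing is read from that excess. For the same reason its sign is largely fixed by the choice of IDs. It was negative in the 152 higher IDs that passed and positive in the 183 lower ones. Among the named IDs, Solyc03g115230.3 had 42.5, 49.7 and 22.6 CPM in recovered depleted-line replicates 13, 11 and 8, against 32.2, 28.6 and 28.9 CPM in irrigated replicates 3, 6 and 7, and these groups overlapped. Its interaction was −3.82 ± 0.85 (log2, SE, edgeR adjusted p = 0.0138). Solyc03g097780.3 had 20.2, 18.6 and 23.5 CPM in recovered depleted-line leaves, against 22.6, 21.8 and 17.7 CPM in irrigated ones, with an interaction of −0.82 ± 0.19 (SE, edgeR adjusted p = 0.0155).

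The other 2 IDs were chosen after their values were seen, as those with the smallest interaction p among the IDs called in opposite directions. Solyc03g116380.3 had 12.9, 16.2 and 19.9 CPM in recovered wild-type replicates 8, 11 and 9, against 5.97, 7.54 and 9.84 CPM in irrigated ones. In the depleted line it had 6.31, 7.71 and 7.59 CPM after recovery, against 13.1, 16.96 and 25.5 CPM under irrigation. The recovered level of each genotype was thus near the irrigated level of the other. Solyc08g005450.2 had 133, 109 and 110.3 CPM in recovered wild-type replicates, against 158, 177 and 159 CPM in irrigated ones. In the depleted line it had 131, 126 and 135 CPM after recovery, against 59.2, 65.5 and 56.2 CPM under irrigation. After recovery the genotypes overlapped at this ID, and under irrigation they did not.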

How the data were processed

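Values in the deposited file are the authors' raw read counts per gene ID, as whole numbers without normalisation. Total leaf RNA was sequenced from NEBNext Ultra libraries, per the labels' protocols. The kit is not strand-specific, so overlapping antisense genes cannot be told apart, and counts of near-identical genes are uncertain. HISAT2 and HTSeq were used, per the submitters' processing notes; for versions, genome build and settings, no source used here gives them. A further 6 columns match no sample and were not used. The edgeR function filterByExpr, given the 7 groups, set which IDs were tested. The quasi-likelihood model (edgeR 4.0.16, R 4.3.3, TMM factors, robust) had a mean for each group, leaving 14 residual degrees of freedom from 21 libraries. It was tested on simulated data. The simulated libraries were independent draws, so that test does not bear on shared plants or on the dependence on replicate 9. Standard errors come from the fold change and the F statistic. Log2 CPM used a prior count of 2. Alternatives used DESeq2 1.42.0 and limma 3.58.1. No pair of libraries within a group agreed within sampling noise (chi-square per degree of freedom 37.3 to 107), and floors cover counting error only.

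The comparison, the ID rules and the alternatives were chosen with earlier results of these data known. Named IDs were the 2 higher and 2 lower called IDs of smallest p whose groups did not overlap and whose mean log2 CPM reached 1. The same rule, by the larger p, took the IDs called the same way in both genotypes. Gene and marker lists planned by product name were not used, since no ID could be paired with one.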

Additional observations from a re-analysis of the deposited data

Results flagged for a closer look

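The genotypes differed in their response to the second drought and recovery by the interaction test at 1415 of 20373 IDs, and 335 of these were among the 997 called in the wild type. Of the named IDs, 4 passed, of which Solyc03g116380.3 and Solyc08g005450.2 had been chosen for their small interaction p. The interaction, depleted line minus wild type, was −3.82 for Solyc03g115230.3 and −0.82 for Solyc03g097780.3. It was −2.43 ± 0.32 for Solyc03g116380.3 (log2, SE, edgeR adjusted p = 0.00134). It was 1.60 ± 0.16 for Solyc08g005450.2 (edgeR adjusted p = 0.000128). The log2 fold changes behind the last pair were −1.36 ± 0.23 in the depleted line and 1.07 ± 0.22 in the wild type for Solyc03g116380.3, and 1.12 ± 0.12 and −0.49 ± 0.11 for Solyc08g005450.2. These tests share the 6 wild-type libraries, and in edgeR the number of called IDs that passed was 0 without recovered replicate 9, since edgeR then called none. That 0 does not show how the interaction itself fared without replicate 9, which is not given here.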

How the results depend on the processing

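No paired analysis was possible because the recovered and irrigated wild-type groups share no replicate number. The tested IDs were held fixed except without the filter. With single wild-type libraries left out, edgeR counts ran from 0 to 1010 calls, 0 to 411 higher and 0 to 599 lower, and with single depleted-line libraries left out from 813 to 1074 calls. Over both kinds, 0 to 105 were shared with the depleted line in the same direction, 0 to 94 in opposite directions, and 0 to 383 passed the interaction. The values of 0 come from the fit without recovered replicate 9, which left no calls to count among. Of the tools added after seeing the data, all without recovered replicate 9, limma voom gave 0, and quality weights gave 4048 (2024 higher, 2024 lower). With all libraries, quality weights gave 5006 (2393 higher, 2613 lower), with a weight of 0.737 for recovered replicate 9 and 0.725 for irrigated replicate 14 against 1.63 to 1.96 for the other 4. DESeq2 gave 2342 (1136 higher, 1206 lower), with 270 shared in the same direction, 173 opposite and 819 passing the interaction. The compared groups alone gave 1957 (1013 higher, 944 lower) and 25 opposite. No filter gave 724 calls, with 367 lower and 59 shared in the same direction. The 12 wild-type libraries gave 686, with 346 lower. Upper-quartile factors gave 489 higher and 484 lower, without the excess of lower calls. Asking for a log2 fold change of at least 1 left 593 calls (276 higher, 317 lower). The cause of these shifts was not tested. No named ID changed sign in 14 alternatives each. Irrigated replicate 6 or 7, left out, also ended the calls of Solyc03g111100.1, Solyc03g121420.3, Solyc03g116380.3 and Solyc08g005450.2 (adjusted p = 0.0531 to 0.118). Solyc08g005450.2 also lost its call without recovered replicate 11 (adjusted p = 0.0822), with the groups alone (adjusted p = 0.0578) and with the wild type alone (adjusted p = 0.0535).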
